A study of Mus musculus with 30 samples.

Results

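The genes described here are 10 genes that mark or drive the epithelial and the mesenchymal state of cells, out of 21951 protein-coding genes of the mouse annotation. They were set by name, with no threshold on a measured value. Cdh1, Epcam and Grhl2 stood for the epithelial state, and Cdh2, Vim, Zeb1, Zeb2, Snai1, Snai2 and Twist1 for the mesenchymal state. The series holds 30 samples of lung adenocarcinoma cells in 12 groups, from the mouse cell lines CK1750 and Tnm2. Both lines were grown in DMEM with fetal bovine serum and either the solvent DMSO or 1 µM UNC0638, which blocks G9a and Glp, the enzymes that methylate lysine 9 of histone H3. The genotype of the lines was not in the sample labels. The study used CK1750 as a line resembling tumour-propagating cells and Tnm2 as a line with little Sca-1 on its surface, so each line is a single culture line and not a set of tumours.

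Histone H3 acetylated at lysine 27 (H3K27ac), found at promoters and enhancers in use, was mapped by chromatin immunoprecipitation and sequencing in 9 samples. CK1750 gave 3 samples with DMSO and 2 with UNC0638, and Tnm2 gave 2 with each. The CK1750 DMSO samples carried 2 replicate numbers and both CK1750 UNC0638 samples the same one, so the number of biological replicates behind a list is unclear. Each group was deposited as 1 merged list of peaks, so the values below carry no replicate spread, and differences between groups are descriptions without a test. The lists held 27367, 24601, 30641 and 18794 peaks in that order, which is also the order of every set of 4 values below. Read totals are unknown, so less acetylation and less depth cannot be told apart where a peak is missing. The list of Tnm2 with UNC0638 stood apart: it was the shortest, and 43.1% of all Tnm2 DMSO peaks had no counterpart in it, against 21.8% in CK1750.

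In the epithelial-mesenchymal transition, epithelial cells give up junctions and polarity and take on a motile, spindle-shaped form. Transcription factors of the Snail, Zeb and Twist families bind E-boxes (the letters CANNTG) and repress epithelial genes such as Cdh1, and Grhl2 and the miR-200 microRNAs act against Zeb1 and Zeb2. In lung adenocarcinoma, the transition is known in connection with invasion and metastasis. Cells that carry genes of both states are called hybrid or partial states.

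Both lines carried H3K27ac at the start sites of genes of both states. A gene was called marked when at least 1 peak lay within 2.5 kb of any of its GENCODE start sites. Cdh1, Grhl2, Cdh2, Vim, Zeb1 and Zeb2 were marked in all 4 lists. Snai2 was marked in 3 lists and missing from Tnm2 with UNC0638, while Epcam, Snai1 and Twist1 were marked in none. The epithelial genes marked were therefore 2 of 3 in every list, and the mesenchymal genes 5, 5, 5 and 4 of 7. Of all protein-coding genes, 50%, 49.1%, 49.4% and 41.3% were marked, 39.2% in all 4 lists and 46.0% in none. For Grhl2 the mark was at an internal start site only, and with the 5′ start sites alone the epithelial count was 1 of 3 in every list. A list pooled over many cells cannot tell whether the same cells carried both kinds of mark.

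**Figure D1:**
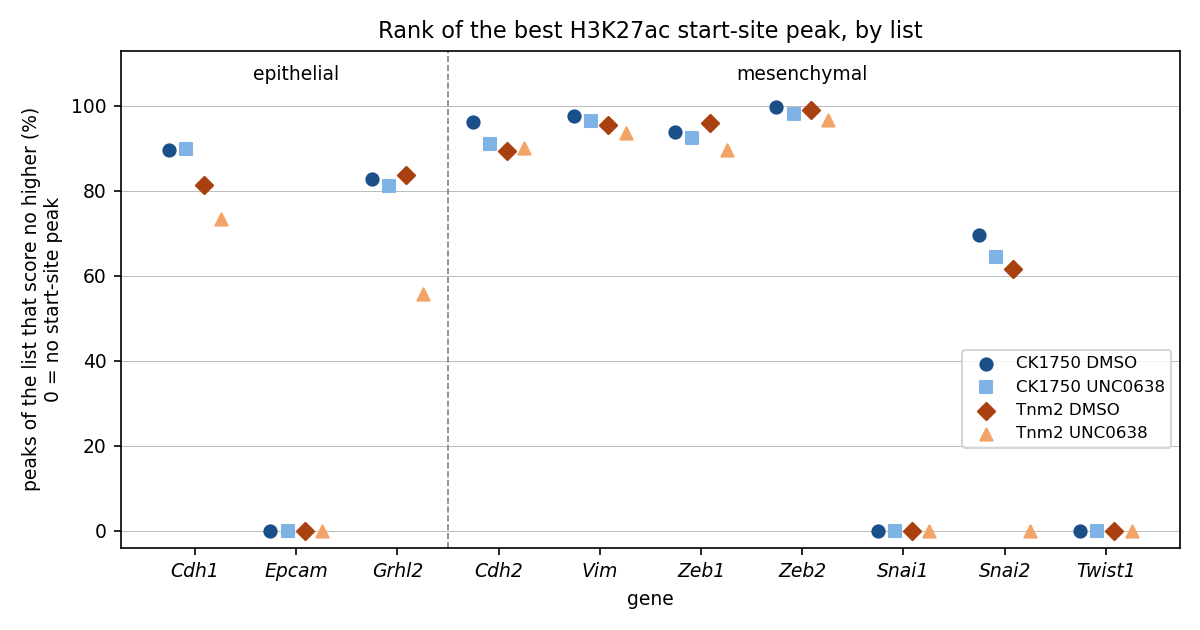
Rank of the best start-site H3K27ac peak of each gene, as the percent of peaks in its list that score no higher (vertical axis), for the 10 genes (horizontal axis) in the 4 lists, 1 point per list with no error because each group has 1 list. Points at 0 are genes without a start-site peak: Epcam, Snai1 and Twist1 in every list and Snai2 in Tnm2 with UNC0638. Vim and Zeb2 sit at 93.7% or more in every list.

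The 250 bases before the start site are shown for the 3 genes that had no start-site peak in any list and, as a marked gene beside them, for the 5′ start site of Zeb2, since the Snail and Zeb factors read E-boxes in such windows. The letters are RefSeq sequence of build GRCm38.p6, written 5′ to 3′ along the gene, with the E-boxes CAGGTG and CACCTG in capitals. These 2 motifs are reverse complements of each other, so both strands were searched, and both are also matches to CANNTG. Positions count back from the start site, so that the base next to it is -1. The windows are chr17:87635729-87635978 (plus strand) for Epcam, chr2:167537945-167538194 (plus strand) for Snai1, chr12:33957421-33957670 (plus strand) for Twist1 and chr2:45117443-45117692 (minus strand) for Zeb2.
Epcam: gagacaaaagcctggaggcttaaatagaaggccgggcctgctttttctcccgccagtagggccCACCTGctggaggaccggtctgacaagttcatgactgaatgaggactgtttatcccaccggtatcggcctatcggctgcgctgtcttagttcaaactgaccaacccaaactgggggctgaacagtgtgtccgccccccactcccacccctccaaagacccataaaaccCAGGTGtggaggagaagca
Snai1: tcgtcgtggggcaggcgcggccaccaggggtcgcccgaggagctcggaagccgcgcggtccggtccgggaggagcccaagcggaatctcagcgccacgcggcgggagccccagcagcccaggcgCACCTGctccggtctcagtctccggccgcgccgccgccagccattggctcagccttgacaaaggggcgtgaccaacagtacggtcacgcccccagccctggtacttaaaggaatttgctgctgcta
Twist1: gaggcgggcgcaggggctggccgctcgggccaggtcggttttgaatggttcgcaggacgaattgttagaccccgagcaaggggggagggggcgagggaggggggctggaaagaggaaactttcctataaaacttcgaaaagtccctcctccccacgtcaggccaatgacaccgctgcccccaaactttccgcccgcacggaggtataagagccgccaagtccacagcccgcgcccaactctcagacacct
Zeb2: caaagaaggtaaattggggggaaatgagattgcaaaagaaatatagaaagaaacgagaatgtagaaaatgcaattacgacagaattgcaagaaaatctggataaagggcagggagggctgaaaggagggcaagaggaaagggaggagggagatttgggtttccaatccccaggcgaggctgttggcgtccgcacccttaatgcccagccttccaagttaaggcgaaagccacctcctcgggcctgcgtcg

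Epcam, an adhesion protein of epithelial cells, held 2 E-boxes of this kind, at -187 and -19. Snai1, which encodes the factor Snail, held 1, at -126. Twist1 and the Zeb2 window held 0, as did the window before the RefSeq start site of Vim. Over 20150 such windows of protein-coding genes, 16.9% held at least 1 of these E-boxes, 2.01% held 2 or more, and 62.5% held any CANNTG. The window of Snai1 had 27 CpG pairs, that of Twist1 18, that of Zeb2 9, and those of Epcam and Vim 8 each, beside a median of 10 and quartiles of 3 and 19 over all windows. A further Zeb2 window, not shown, before a start site under the gene's highest-scoring peak, had 14 CpG pairs. The unmarked genes were thus on both sides of the median. A match is a description of the letters and not a binding site. The sequence table matched 5 of the 10 genes (Epcam, Snai1, Twist1, Vim and Zeb2). Cdh1, Grhl2, Cdh2, Zeb1 and Snai2 were not matched.

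Among the epithelial genes, Cdh1 encodes E-cadherin, the adhesion protein of adherens junctions, and it lies on the plus strand at chr8:106603351-106670246 (mm10, as all coordinates here). Its start-site peak scored 1171.16, 1182.63, 485.85 and 228.86. A score is 10 times the negative log10 of the P value that the authors' caller gave a peak and is comparable only within a list, so it is given with the percent of peaks of the list that scored no higher, which was 89.6%, 89.9%, 81.4% and 73.4%. These percents depend on the length of a list. Among the marked protein-coding genes of each list, 74.8%, 78.5%, 57.5% and 55.7% had a best start-site peak that scored no higher than that of Cdh1, so its place among marked genes was close with both treatments in each line and lower in Tnm2. A second peak within the start-site window scored 168.55, 272.94 and 124.18 and was missing from Tnm2 with UNC0638.

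Cdh1 also stood in the most densely marked neighbourhood of the 10 genes. The gene and 50 kb on each side held 22, 19, 32 and 21 peaks, against a median of 2 per protein-coding gene in every list. Per 100 kb this was 13.2, 11.4, 19.2 and 12.6 peaks, a density that at least 99.2% of protein-coding genes did not exceed in any list. Joined over the lists, these peaks formed 28 regions, of which 11 were present in all 4 lists, 2 lay at the start sites of Cdh1 and 16 elsewhere inside the gene. Of all regions joined over the whole lists, 34.2% were present in all 4. A block centred 14.7 kb into the gene (chr8:106615056-106621028) scored 1313.04, 838.27, 858.41 and 304.07. Another centred at 8.0 kb (chr8:106607988-106614728) scored 580.78, 1453.85, 1152.00 and 492.30, and one more centred at 38.4 kb (chr8:106639862-106643594) scored 906.37, 866.95, 729.79 and 383.92. In every list at least 1 of these intragenic peaks scored higher than the start-site peak.

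Grhl2, a transcription factor that maintains epithelial identity (chr15:37233036-37363569, plus strand), had no peak near its 5′ start sites. The nearest peak to the start site at 37233036 lay 47.8, 22.3, 22.4 and 22.4 kb away. The peak that marked the gene overlapped a start site 85.4 kb into the gene, that of a transcript annotated as processed and not as protein-coding. It scored 716.24, 693.73, 549.51 and 135.58, with 82.7%, 81.2%, 83.7% and 55.8% of the list no higher. Among marked genes, 60.1%, 61.7%, 61.7% and 35.3% scored no higher, so the best peak of Grhl2 held a lower place in Tnm2 with UNC0638 than in the other lists. In that list the region was called as separate adjacent peaks of 95.54 and 135.58, and the higher was ranked. All start-site peaks of Grhl2 together covered 2200, 2672, 3130 and 2968 bp. The neighbourhood held 5, 7, 13 and 8 peaks, which formed 18 regions. Only the region at this internal start site was present in all 4 lists, 8 regions were found in Tnm2 alone, and 4 in CK1750 alone. Of the 8, 5 were in the DMSO list only. Of all regions joined over the whole lists, 34.2% were in all 4, 23.8% in Tnm2 alone and 22.4% in CK1750 alone.

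Epcam (chr17:87635979-87651129, plus strand) had no peak near its start sites, and the nearest peak ended 21.8, 21.7, 21.8 and 22.1 kb upstream of the 5′ one. This peak (chr17:87612433-87614291 over all lists) scored 625.38, 350.94, 649.81 and 90.49. In Tnm2 with UNC0638 it was called as separate adjacent peaks of 86.03 and 90.49, of which the higher is given. The neighbourhood of Epcam held 4, 5, 4 and 3 peaks, which formed 6 regions. Of these, 2 were present in all 4 lists, against 34.2% of all joined regions.

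**Figure D2:**
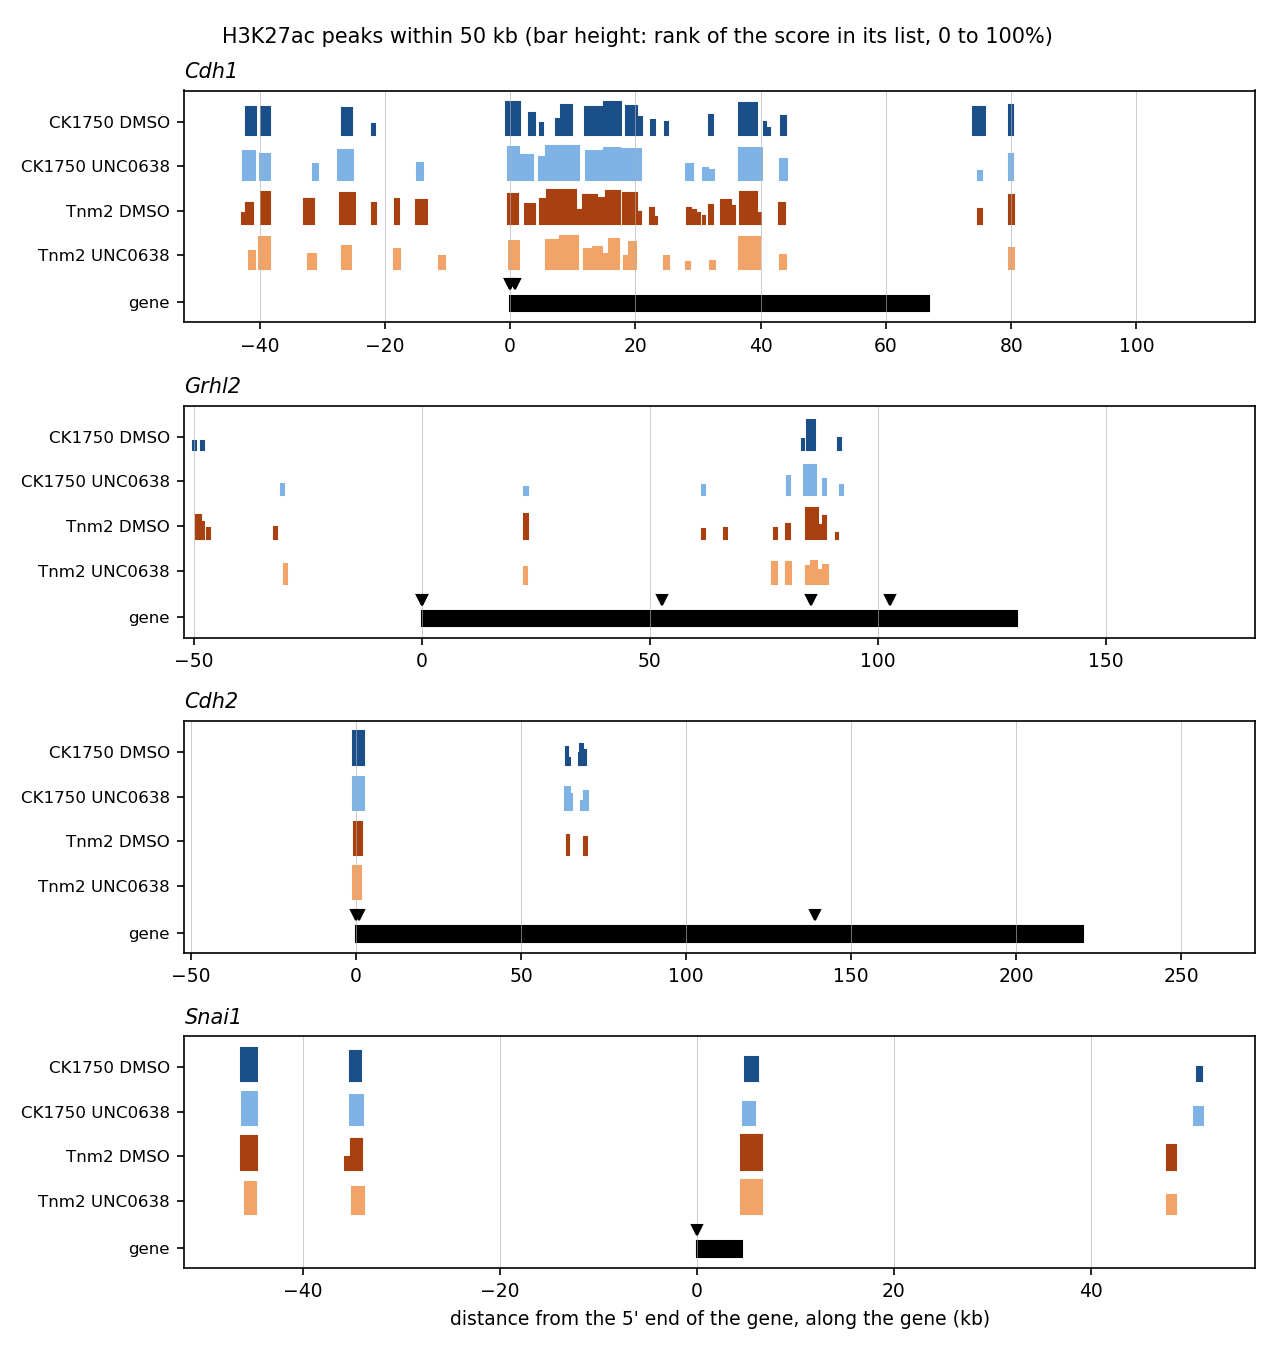
H3K27ac peaks within 50 kb of Cdh1, Grhl2, Cdh2 and Snai1, by distance from the 5′ end of the gene in kb (horizontal axis) in the 4 lists (rows). The height of each bar is the rank of the peak's score in its own list, black bars are genes and triangles annotated start sites. Peaks crowd the start of Cdh1 in all 4 lists, the marked start site of Grhl2 is 85.4 kb into the gene, the intragenic peaks of Cdh2 are missing from Tnm2 with UNC0638, and Snai1 has none at its start site.

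Among the mesenchymal effector genes, Vim encodes vimentin, the intermediate filament protein of mesenchymal cells (chr2:13573927-13582826, plus strand). Its start-site peak scored 3006.11, 2257.63, 1377.20 and 618.11, and 97.6%, 96.5%, 95.6% and 93.7% of the list scored no higher. The peak spanned between 3205 and 4437 bp. Among marked genes, 94.0%, 92.3%, 88.5% and 87.8% had a best start-site peak that scored no higher. Vim therefore ranked high in every list, with both treatments. The other peaks near it were few, with 3, 4, 4 and 2 in the whole neighbourhood, and the one that recurred in all 4 lists was at the start site of Trdmt1.

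Cdh2 encodes N-cadherin, the adhesion protein that replaces E-cadherin in the transition (chr18:16588877-16809246, minus strand). Its start-site peak scored 2393.09, 1285.69, 777.86 and 468.07, with 96.3%, 91.1%, 89.4% and 90.0% of the list no higher. Among marked genes, 90.7%, 81.1%, 73.3% and 81.2% scored no higher. Intragenic peaks between 64.1 and 69.6 kb from the start site numbered 5 regions. Of these, 4, 4, 2 and 0 had a peak in the lists, so that Tnm2 with UNC0638 kept the start-site peak alone. Of the 6 regions of Cdh2, 3 were found in CK1750 alone and 0 in Tnm2 alone. Over the whole lists, 22.4% and 23.8% of joined regions were.

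Zeb2, a repressor of epithelial genes (chr2:44983632-45117395, minus strand), had the highest-ranked start-site peak of the 10 genes in every list. It scored 3100.00, 3061.61, 2625.87 and 870.19, with 99.8%, 98.2%, 99.0% and 96.8% of the list no higher. Scores piled up at 3100.00 (558, 371 and 169 peaks in the first 3 lists), so the first of these values has no exact rank. Among marked genes, 99.5%, 96.0%, 97.1% and 93.6% scored no higher than this peak. This peak (chr2:45108943-45111446 over all lists) was centred 7.2 kb into the gene and also reached start sites of the opposite-strand gene Zeb2os, which H3K27ac cannot tell from those of Zeb2. A separate peak at the 5′ start site, which the sequence shown above precedes, scored 237.03, 224.83, 281.77 and 154.61. Both were present in all 4 lists.

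Zeb1, the other Zeb repressor (chr18:5591860-5775467, plus strand), had a start-site peak that scored 1737.06, 1425.97, 1427.41 and 460.33, with 93.8%, 92.4%, 95.9% and 89.7% of the list no higher. It was near start sites of Gm10125 and Gm2238 as well. Among marked genes, 84.6%, 83.6%, 89.2% and 80.6% scored no higher than this start-site peak. An intragenic peak centred at 27.9 kb scored 178.00, 191.02, 217.26 and 140.19. A peak 228.1 kb from the 5′ end, past the far end of the gene, scored 76.33, 80.98, 556.31 and 118.80. It was present in all 4 lists and was a low-scoring peak in CK1750. In Tnm2 with UNC0638 it was called as separate adjacent peaks of 59.24 and 118.80, of which the higher is given.

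Snai2, which encodes the repressor Slug (chr16:14705852-14709385, plus strand), was the only member whose mark differed between lists. Its single peak scored 346.75, 310.71 and 202.65 in the first 3 lists, with 69.6%, 64.4% and 61.6% of the list no higher. Among marked genes, 37.9%, 36.2% and 29.0% scored no higher. In Tnm2 with UNC0638 the nearest peak was 324 kb away. Snai2 thus ranked lower than any other marked gene of the 10 in the first 3 lists. The pattern of a mark in every list but that of Tnm2 with UNC0638 was shared by 1314 protein-coding genes (5.99%). Of marked protein-coding genes in Tnm2 with DMSO, 17.7% had no start-site peak with UNC0638. Among the 1640 genes whose best Tnm2 DMSO start-site peak scored from 150 to 250, a range set after the value of Snai2 was seen, 22.6% had none with UNC0638. The 3 protein-coding genes nearest to Snai2 in the 4 ranks were Cdk4 (Euclidean distance of 0.857 percentage points over the 4 lists), Brcc3 (1.8) and Cmc4 (1.8).

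Snai1 (chr2:167538195-167542814, plus strand) had no peak at its start site, and the nearest one began 4.89, 4.66, 4.52 and 4.51 kb downstream. This peak, centred 5.6 kb from the start site and reaching past the 3′ end of the gene (chr2:167542710-167544842), was present in all 4 lists and scored 216.12, 232.41, 1348.19 and 891.05. The percent of the list that scored no higher was 59.0%, 57.1%, 95.5% and 96.9%. This peak ranked in the middle of the CK1750 lists and near the top of both Tnm2 lists. In Tnm2 with UNC0638 it scored higher than the start-site peak of any of the 10 genes. Twist1, a basic helix-loop-helix factor of the mesenchymal state (chr12:33957671-33959829, plus strand), had no peak within 50 kb in any list, and the nearest peak was 118, 118, 527 and 527 kb away.

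The next question was how UNC0638 moved the peaks near these genes. With treatment the number of peaks in the 10 neighbourhoods went from 55 to 51 in CK1750 and from 73 to 47 in Tnm2. In CK1750, 15 of 55 DMSO peaks (27.3%, Wilson 95% interval 17.3% to 40.2%) had no overlapping UNC0638 peak, against 21.8% of all peaks of the list. In the other direction, 14 of 51 UNC0638 peaks (27.5%, 17.1% to 40.9%) had no DMSO peak, against 19.6%. In Tnm2, 33 of 73 DMSO peaks were lost (45.2%, 34.3% to 56.6%, against 43.1%) and 3 of 47 UNC0638 peaks were gained (6.38%, 2.19% to 17.2%, against 8.81%). These intervals cover counting error only, and each contained the share of the whole list. They treat peaks as independent, although Cdh1 alone held 22, 19, 32 and 21 of the 55, 51, 73 and 47 peaks. The pooled shares therefore rest largely on 1 locus. The balance of losses and gains over whole lists depends on their lengths. Where each peak matches 1 other, lists of equal length leave equal numbers unmatched in each direction. With the 18794 highest-scoring peaks of each list, 24.4% of the peaks near the 10 genes were lost and 21.3% gained in Tnm2. In CK1750, 15.2% were lost and 31.6% gained. Whole-list shares under this cut were not computed.

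The lost peaks were mostly weak, and over the whole lists too loss was most frequent among weak peaks. Between 50 and 100, CK1750 lost 14 of 23 (60.9%, against 50.1% of all peaks in that class) and Tnm2 22 of 31 (71.0%, against 79.4%). The median score of the lost peaks was 60.9 in CK1750 and 70.4 in Tnm2, against 330 and 347 for the peaks that were kept. Of CK1750 DMSO peaks over 200, 0 of 23 were lost, against 0.943% of all CK1750 DMSO peaks in that class. Of Tnm2 DMSO peaks over 200, 3 of 30 were lost (10.0%, against 5.57% of all Tnm2 DMSO peaks in that class). These 3 were the Snai2 start-site peak (202.65), a peak inside Cdh1 (212.00, chr8:106608105-106609093) and a peak 48.9 kb upstream of Grhl2 (203.22, chr15:37183570-37184615). Between 100 and 200, Tnm2 lost 8 of 12 (66.7%, against 47.4%) and CK1750 1 of 9 (11.1%, against 14.2%). The highest-scoring peak lost in CK1750 was inside Zeb2 (177.54, chr2:45019368-45020262).

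**Figure D3:**
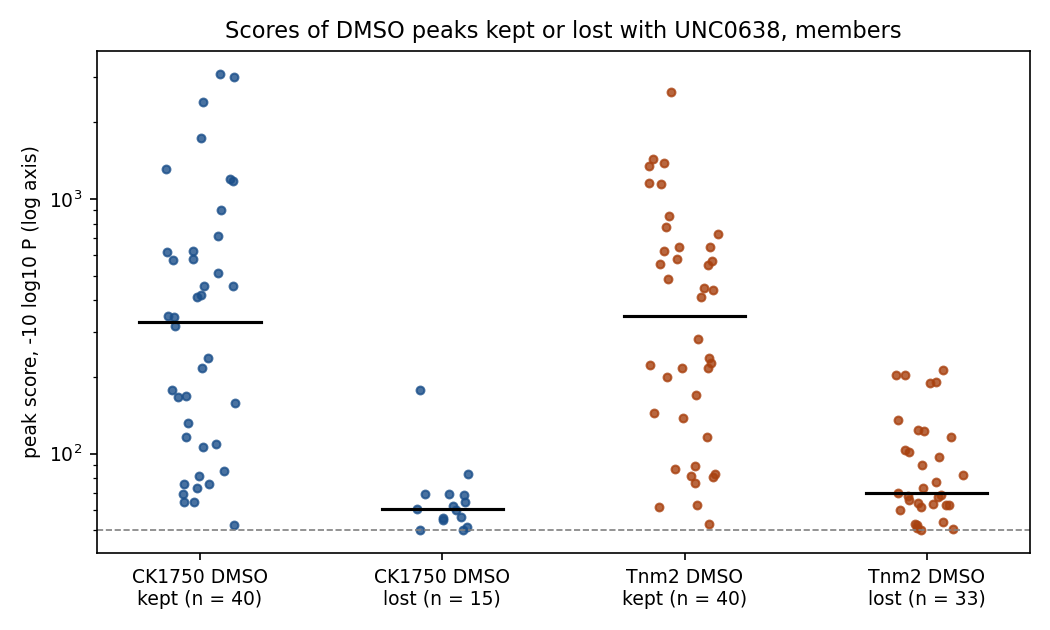
Scores (10 times the negative log10 P, log axis) of the DMSO peaks within 50 kb of the 10 genes that were kept or lost with UNC0638 in CK1750 and in Tnm2, 1 point per peak and a line at the median. The dashed line marks the caller's cutoff of 50. Lost peaks have medians of 60.9 and 70.4, and all but 1 of those of CK1750 lie below 100.

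The treatment differences were small in number at most genes. Gains in CK1750 were highest at Grhl2, where 5 of 7 UNC0638 peaks were new and 3 of 5 DMSO peaks were lost. The highest-scoring gain there was inside the gene (129.65, chr15:37313001-37313671), and the highest-scoring loss had a score of 60.91. At Cdh1, CK1750 lost 5 peaks and gained 4, and Tnm2 lost 14 of 32 and gained 2. At Vim, Zeb1, Zeb2, Snai1 and Cdh2, Tnm2 lost 1 or 2 peaks each and gained 0. Over all peaks of the lists, 21.8% were lost and 19.6% gained in CK1750, and 43.1% and 8.81% in Tnm2. Of the 85 joined regions, 3 were lost in both lines (3.53%, against 2.97% of 37710 regions joined over the whole lists), 2 at Cdh1 and 1 at Grhl2, and 0 were gained in both. The epithelial genes held 52 of the 85 regions. The DMSO scores of the Cdh1 pair were 62.36 and 135.26 at chr8:106581298-106581893 and 83.21 and 90.03 at chr8:106625690-106626413, in CK1750 and Tnm2.

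**Figure D4:**
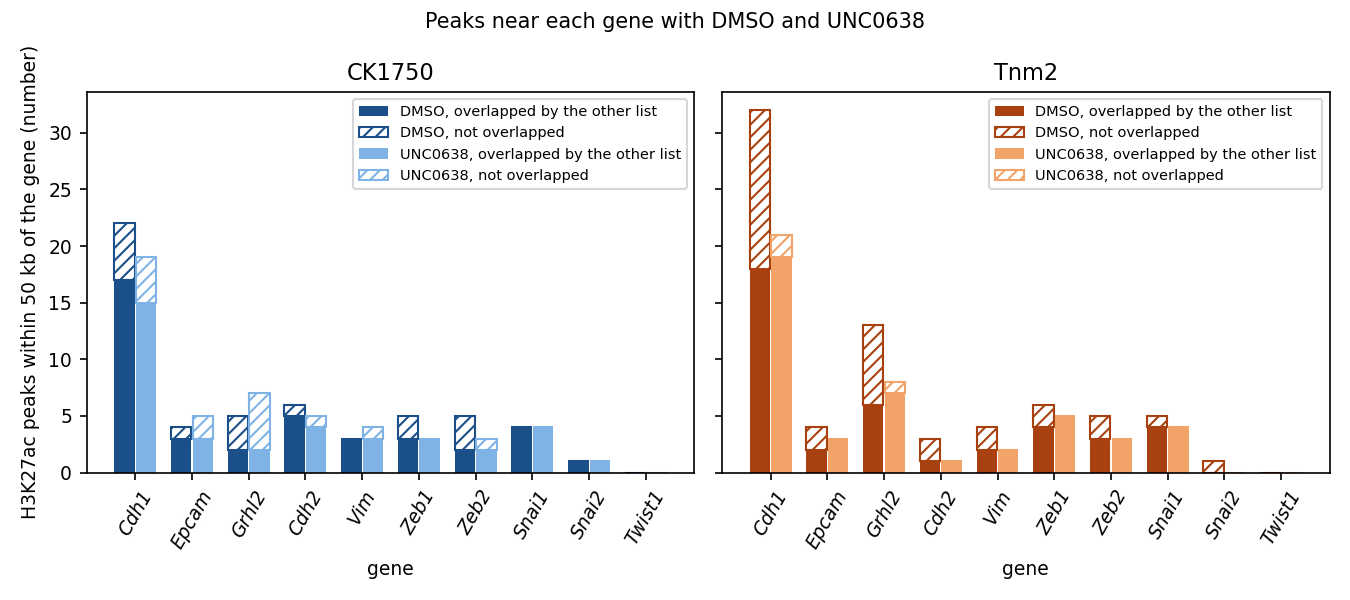
Number of H3K27ac peaks within 50 kb of each gene with DMSO (left bar) and UNC0638 (right bar) in CK1750 and Tnm2, split into peaks overlapped by at least 1 bp in the other treatment (filled) and not overlapped (hatched). Cdh1 has the most peaks in every list, and in Tnm2 14 of its 32 DMSO peaks are not overlapped, against 43.1% of all Tnm2 DMSO peaks.

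Between the lines, no member was marked in CK1750 alone or in Tnm2 alone with DMSO. With UNC0638 the difference was Snai2, marked in CK1750. Of all protein-coding genes, 6.87% with DMSO and 10.5% with UNC0638 were marked in 1 line only. Of all peaks near the 10 genes, 27.3%, 39.2%, 45.2% and 21.3% had no peak in the other line under the same treatment, against 26.4%, 39.0%, 34.9% and 17.4% of all peaks. For Tnm2 with DMSO the interval was 34.3% to 56.6%, which contained the whole-list share. Split by state, the epithelial genes had 25 of 49 such peaks (51.0%, 37.5% to 64.4%), an interval above that share. The mesenchymal genes had 8 of 24 (33.3%, 18.0% to 53.3%). Cdh1 held 32 of the 49 epithelial peaks. In the other lists the interval of each state contained the whole-list share. The 85 joined regions included 25 in all 4 lists (29.4%, against 34.2% of the regions of the whole lists), 19 in CK1750 alone (22.4%, against 22.4%) and 21 in Tnm2 alone (24.7%, against 23.8%), and 15 were in Tnm2 with DMSO only (17.6%, against 17.4%). These shares lay near those of the whole lists.

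Other genes of the 2 states were marked about as often as protein-coding genes in general (50%, 49.1%, 49.4% and 41.3%). Among 24 further epithelial genes, 13, 13, 12 and 10 were marked, and 9 of them in all 4 lists, among them the keratins Krt8, Krt18 and Krt19, the splicing regulator Esrp2 and the transcription factor Elf3. Krt8 scored 3100.00, 3100.00, 2106.13 and 756.98. Another 8, among them the splicing regulator Esrp1, the tight-junction gene Cldn4 and Grhl1, were marked in none, and 7 in some lists. With UNC0638, CK1750 lost the mark at Cldn7 (67.77 with DMSO) and Spint1 (62.64) and gained it at the desmosomal genes Dsp (95.43) and Pkp3 (81.83). Tnm2 lost it at Cldn3 (50.68), Ocln (333.98) and Ovol2 (53.37) and gained it at Spint1 (79.91). Apart from Ocln, the tight-junction protein occludin, these peaks all scored below 100. With equal numbers of peaks per list, 1 epithelial mark in place of 3 was lost in Tnm2. That cut dropped the DMSO peaks of Cldn3 and Ovol2 themselves, so it cannot show whether their marks were lost. At a score of 100 or more, 9, 7, 10 and 6 were marked, and 0 were gained in either line. The losses at that score were Marveld3 (242.53 to 57.13) and Ovol2 (160.85 to 73.55) in CK1750. In Tnm2 they were Elf3 (116.58 to 69.10), Ocln, Prss8 (223.54 to 58.60) and Tjp3 (139.58 to 64.15). Without these cuts, 4.85% of marks over all protein-coding genes were lost and 3.03% of unmarked genes gained one in CK1750. In Tnm2 these shares were 17.7% and 1.18%.

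Among 24 further mesenchymal genes, 11, 11, 12 and 9 were marked, 9 of them in all 4 lists and 12 in none. Those marked in none were Acta2, Cdh11, Col1a2, Col3a1, Fap, Foxc2, Lox, Mmp2, Pdgfrb, Tagln, Thy1 and Twist2. Among those marked in all 4 lists were Fn1 and Itga5. Fn1, which encodes fibronectin, scored 1844.35, 1151.51, 604.67 and 122.32, and the integrin gene Itga5 1273.10, 1597.31, 1316.03 and 598.70. In CK1750 0 marks were lost or gained, with 1 lost and 1 gained at a score of 100 or more and 1 lost with equal numbers of peaks. Tnm2 lost it at the collagen gene Col1a1 (96.78), the homeobox gene Prrx1 (102.86) and Tgfbi (68.57). With equal numbers of peaks per list 0 marks were lost in Tnm2. That cut dropped these DMSO peaks themselves, so it cannot show whether their marks were lost. Neither list of further genes had a gene marked in 1 line with both treatments and in the other with neither.

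**Figure D5:**
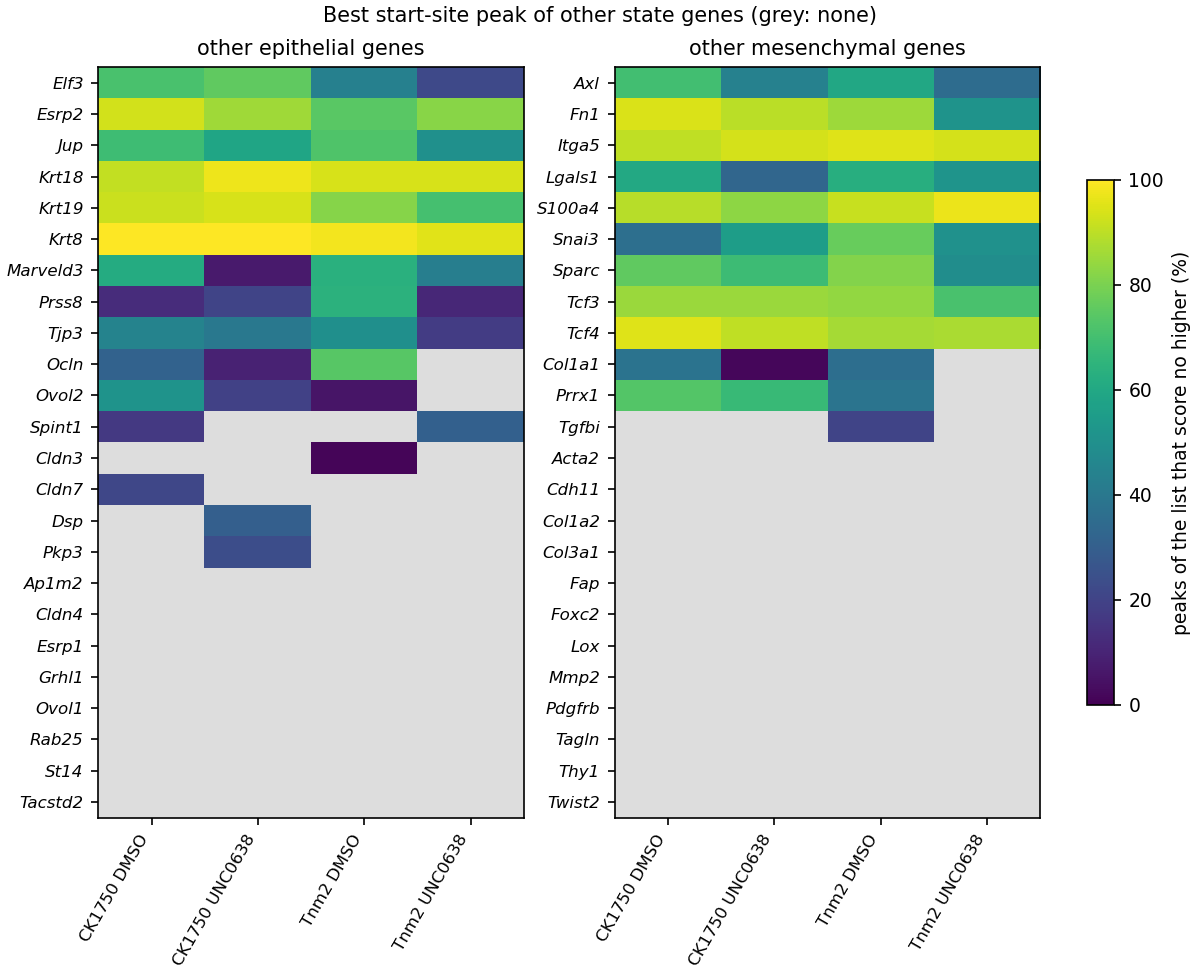
Rank of the best start-site peak (colour, percent of peaks of the list that score no higher) of the 24 further epithelial and 24 further mesenchymal genes (rows) in the 4 lists (columns), with grey for no start-site peak. In each panel 9 genes are marked in all 4 lists, and 8 epithelial and 12 mesenchymal genes are grey throughout.

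The microRNAs that act against Zeb1 and Zeb2 are shown by their mature sequences, since their pairing with messenger RNA is set by the seed (bases 2 to 8, in capitals). miR-200b, miR-200c and miR-429 share 1 seed, and miR-200a and miR-141 share another that differs by 1 base. The sequences are those of RefSeq on build GRCm38.p6.
mmu-miR-200b-3p: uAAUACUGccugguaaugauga
mmu-miR-200c-3p: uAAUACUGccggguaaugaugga
mmu-miR-429-3p: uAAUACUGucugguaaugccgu
mmu-miR-200a-3p: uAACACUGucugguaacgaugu
mmu-miR-141-3p: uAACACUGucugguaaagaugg

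None of these 5 hairpins had a peak within 2.5 kb of its annotated start in any list. For Mir200b, on chromosome 4 beside Mir200a and Mir429, the nearest peak lay 11.7, 21.7, 11.6 and 8.24 kb away. For Mir200c, on chromosome 6 beside Mir141, it lay 5.08, 5.24, 5.01 and 5.25 kb away and scored 527.76, 547.62, 1045.14 and 263.85. Mir205, a further microRNA against the Zeb genes, was marked in CK1750 with DMSO alone (77.69), by a peak 2.41 kb away, and its nearest Tnm2 DMSO peak was 2.7 kb away. The annotation gives the hairpin and not the start of its precursor transcript, so a peak farther off may belong to that start.

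The cell type of the lines was read from markers of the lung and of other cells. Of 9 lung epithelial markers, 7 were marked in every list, including Nkx2-1, Foxa1, Foxa2 and Sftpc, and Epcam and Napsa in none. The leukocyte markers were marked in 0 of 7 in every list. Of 5 endothelial markers, 0, 0, 1 and 1 were marked (Pecam1, 116.30 and 230.74 in the Tnm2 lists), and of 7 fibroblast markers 1, 1, 1 and 0 (Col1a1). The other 6 fibroblast markers, Pdgfra, Pdgfrb, Dcn, Lum, Col3a1 and Thy1, had no start-site peak in any list, beside the marks at Vim, Cdh2, Zeb1 and Zeb2 described above.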

How the data were processed

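H3K27ac was measured by ChIP-seq in 9 samples of 4 groups. The authors mapped reads to mm10 with Bowtie2 and called peaks with MACS 1.4.2 (P value cutoff 1e-05), and the deposited lists, 1 per group, give each peak's position and a score, 10 times the negative log10 of P (cutoff 50). Which libraries were merged, and the control used, are not given in the sources used here. The 21 H3K9me2 and input samples (8 groups) were left out. The 10 genes, although set by name, and all gene lists were chosen with earlier results of these data known. Genes and start sites came from GENCODE M21, and 0 peaks ended beyond a GRCm38 chromosome. Peaks overlapping 2.5 kb around any start site, or 50 kb around the gene, were counted. Peaks matched when they overlapped by 1 bp. All 10 genes were named, and of other genes those whose mark differed between treatments or lines, beside examples chosen after their values were seen. For each gene and line the highest-scoring lost and gained peaks were listed, and part of them is described. Overlap code was tested on simulated lists. Shares carry Wilson 95% intervals for counting error only, and depth is unknown. Python 3.11.15, pandas 2.3.3 and scipy 1.17.1 were used.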

Additional observations from a re-analysis of the deposited data

Results flagged for a closer look

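The length covered by peaks near the genes rose with UNC0638 in CK1750 and fell in Tnm2, and this opposite direction flagged the following values. Each line had 1 list per treatment, so the difference between the lines was not tested. Over all 10 neighbourhoods the covered length rose by 11.4 kb in CK1750 (from 64.1 to 75.5 kb) and fell by 23.9 kb in Tnm2 (from 82.7 to 58.8 kb). At the epithelial genes it rose by 11.3 kb in CK1750 and fell by 15.1 kb in Tnm2, and at the mesenchymal genes it rose by 0.08 kb and fell by 8.79 kb. The rises in CK1750 were 7.18 kb at Cdh1, 3.18 kb at Grhl2, 1.06 kb at Vim, 0.971 kb at Epcam, 0.714 kb at Cdh2 and 0.552 kb at Snai1. In Tnm2 Cdh1 fell by 11.2 kb, Grhl2 fell by 2.89 kb, Vim fell by 1.81 kb, Epcam fell by 1.04 kb, Cdh2 fell by 1.34 kb and Snai1 fell by 0.936 kb. At Zeb2, Zeb1 and Snai2 the covered length was lower with UNC0638 in both lines, in CK1750 going from 5633 to 3995 bp, from 4902 to 4336 bp and from 1611 to 1572 bp. The number of peaks rose by 1 at Epcam, 2 at Grhl2 and 1 at Vim in CK1750 and fell by 1, 5 and 2 in Tnm2. In CK1750 it was lower with UNC0638 at Cdh1 (22 to 19), Cdh2 (6 to 5), Zeb1 (5 to 3) and Zeb2 (5 to 3), and over all 10 genes it went from 55 to 51. The whole lists moved the same way, CK1750 rising from 28.5 Mb covered with DMSO to 31.6 Mb with UNC0638 and Tnm2 falling from 31.8 Mb to 22.9 Mb, with median peak widths of 835 and 1048 bp and of 831 and 1040.5 bp. What part depth or peak width had in these values was not tested.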

How the results depend on the processing

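The set of marked genes and the loss at Snai2 in Tnm2 did not change with peaks of score 100 or more, with the 18794 highest-scoring peaks of each list, or with a start-site window of 1 kb. Of 174 alternative values of the 38 main results, which are counts and shares without a sign, 141 stayed within a factor of 1.5 or the interval of the share and 33 moved. With start sites of protein-coding transcripts, or with the 5′ start site alone (an alternative added after the data were seen), the epithelial genes marked were 1 of 3 in every list, since Grhl2 dropped out. At a score of 100 or more, peaks near the genes numbered 32 in CK1750 DMSO, 42 in Tnm2 DMSO and 28 in Tnm2 UNC0638, the loss in CK1750 was 15.6%, the shares without a peak in the other line were 15.6% (CK1750 DMSO) and 33.3% (Tnm2 DMSO), the further epithelial genes marked were 7 in CK1750 UNC0638 and 6 in Tnm2 UNC0638, and the microRNA mark was 0. With equal numbers of peaks, 33 (CK1750 DMSO) and 41 (Tnm2 DMSO) peaks remained, the loss was 15.2% in CK1750 and 24.4% in Tnm2, the gain in Tnm2 21.3%, the shares without a peak in the other line 15.2% (CK1750 DMSO), 26.3% (CK1750 UNC0638) and 31.7% (Tnm2 DMSO), and the microRNA mark 0. The microRNA mark was also 0 with a 1 kb window. Within 10 kb, peaks numbered 32 in CK1750 UNC0638, 47 in Tnm2 DMSO and 30 in Tnm2 UNC0638. Requiring a reciprocal overlap of 50% gave a loss of 43.6% in CK1750, a gain of 23.4% in Tnm2 and 42.6% without a peak in the other line in Tnm2 UNC0638. With lists of the same length, the losses and gains in Tnm2 went from 45.2% and 6.38% to 24.4% and 21.3%. In CK1750 they went from 27.3% and 27.5% to 15.2% and 31.6%. The UNC0638 shares without a peak in the other line (39.2% in CK1750 and 21.3% in Tnm2) became 26.3% and 27.7%. Where each peak matches 1 other, whole lists of equal length leave equal numbers unmatched in each direction. A cut to equal length can therefore narrow such gaps by itself. Near the 10 genes the gap between losses and gains narrowed in Tnm2 and widened in CK1750 under this cut. Whole-list shares under it were not computed. No paired analysis was possible because each group has 1 merged list, and no replicate could be left out for the same reason.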
